A study of Mus musculus with 7 samples.

Results

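Ntn1, the gene for netrin-1, and the receptors reported to bind it or to act with it were followed in cells washed from mouse lungs. The members were taken by gene symbol, with no minimum of abundance, and 9 of the 10 listed genes had a row among the 16476 genes of the deposited table. These were Ntn1, Unc5a, Unc5c, Neo1, Dscam, Adora2b, Mcam, Itga3 and Itga6; Unc5b was not analysed here. The knockout group comprised 3 libraries of genotype Netrin1loxp/loxp LysM Cre and the control group 4 libraries of genotype LysM Cre. All were on the C57BL/6 strain, and by these labels both groups carried the Cre recombinase. Lyz2, the lysozyme M gene, stood at 76927 and 118781 normalized counts in control replicates 1 and 4. It stood at 770 and 721 in control replicates 2 and 3, and at 910 to 1052 in knockouts. Whether the libraries shared the same number of Cre alleles was not tested. Every mouse had received bacterial lipopolysaccharide (LPS) into the trachea 3 days before its airspaces were washed (bronchoalveolar lavage), and neutrophils had been taken out with antibodies before RNA was extracted. Ages, sexes, any pooling of mice and the exons between the loxP sites were not given in the sources used here, so p-values measure the spread between libraries, which may be technical. The comparison asks how transcripts of airspace cells differ when cells that use the lysozyme M promoter lose Ntn1.

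Netrin-1 is a secreted protein related to laminins that steers growing axons and is also made by immune cells, where it has been linked to the retention and restraint of macrophages. It is read by single-pass receptors of the UNC5 and neogenin families, by the immunoglobulin-family protein Dscam and by the adhesion protein Mcam (CD146). The Gs-coupled adenosine A2B receptor, encoded by Adora2b, has been implicated in the anti-inflammatory effects of netrin-1 in lung, and laminin-binding integrins that contain the alpha chains encoded by Itga3 or Itga6 can bind netrin-1 directly. The lysozyme M promoter is active in macrophages, monocytes and neutrophils and, in mouse lung, also in alveolar type II epithelial cells, so recombination need not be limited to myeloid cells, while most lymphocytes are expected to keep the floxed gene.

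The recovered reads came to between 9903284 and 13353733 per library. Several marker lists moved with the groups. All 12 natural killer cell markers rose in knockouts (summed normalized counts of 53416 to 60100 in knockouts and 11170 to 18639 in controls), as did 7 of 12 neutrophil markers (24158 to 71711 and 16049 to 18509) and 8 of 13 tested epithelial markers (1114 to 1466 and 586 to 782), while 8 of 12 markers of monocytes and recruited macrophages fell and 1 rose (24312 to 34089 and 46533 to 72292). The epithelial genes that rose included the type II cell genes Sftpc and Sftpb, both low in controls (means of 7.49 and 4.46 normalized counts). They also included Scgb1a1 (271.5 in knockouts and 65.4 in controls) and Foxj1 (62.5 and 16.7), so the rise was not confined to type II cell genes. Of the T cell markers 3 of 12 rose, namely Trbc1, Lck and Thy1 (summed counts of 10400 to 13715 in knockouts and 8197 to 9977 in controls). The median log2 fold change of the T cell list was 0.12, and Cd3d, Cd3e, Cd3g and Trac were not called. Of the dendritic cell markers 3 of 8 rose, namely Ccr7, Ccl17 and Ccl22 (2120 to 3531 in knockouts and 1166 to 1642 in controls). Over all genes tested, 10.4% were called higher and 11.3% lower (limma, adjusted p under 0.05). Knockout replicate 1 held the highest neutrophil sum. Of the alveolar macrophage markers, the labelled tissue's defining cells, all 11 in the table had reads in every library and 0 of 11 passed the test in limma, edgeR or DESeq2, with 1 at an unadjusted p under 0.05. In bulk RNA, fewer cells of a type and less RNA per cell cannot be told apart, and the part of these markers in the results below was not tested unless a value is given.

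Of the 9 genes, 6 reached the mean normalized count of 10 required for the test across all genes, and 2 of these 6 rose in knockouts at an adjusted p under 0.05 (limma with Benjamini-Hochberg adjustment). Over all 12963 genes tested, 21.7% were called, 10.4% higher and 11.3% lower, so that 2 of 6 exceeds the background share by less than 1 gene. Likewise 2 of these 6 were called on recovered reads with edgeR (22.1% of all genes called) and DESeq2 (23.4%). With no minimum of abundance all 9 genes were fitted, and 2 of the 9 were called in limma (17.9% of all genes called) and in edgeR (17.8%). The risers were Adora2b and Dscam. None of the 6 fell, in limma, edgeR or DESeq2, and none was lower at an unadjusted p under 0.05. The median log2 fold change of the 6 tested members was 0.32, against 0.01 over all genes tested.

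**Figure D1:**
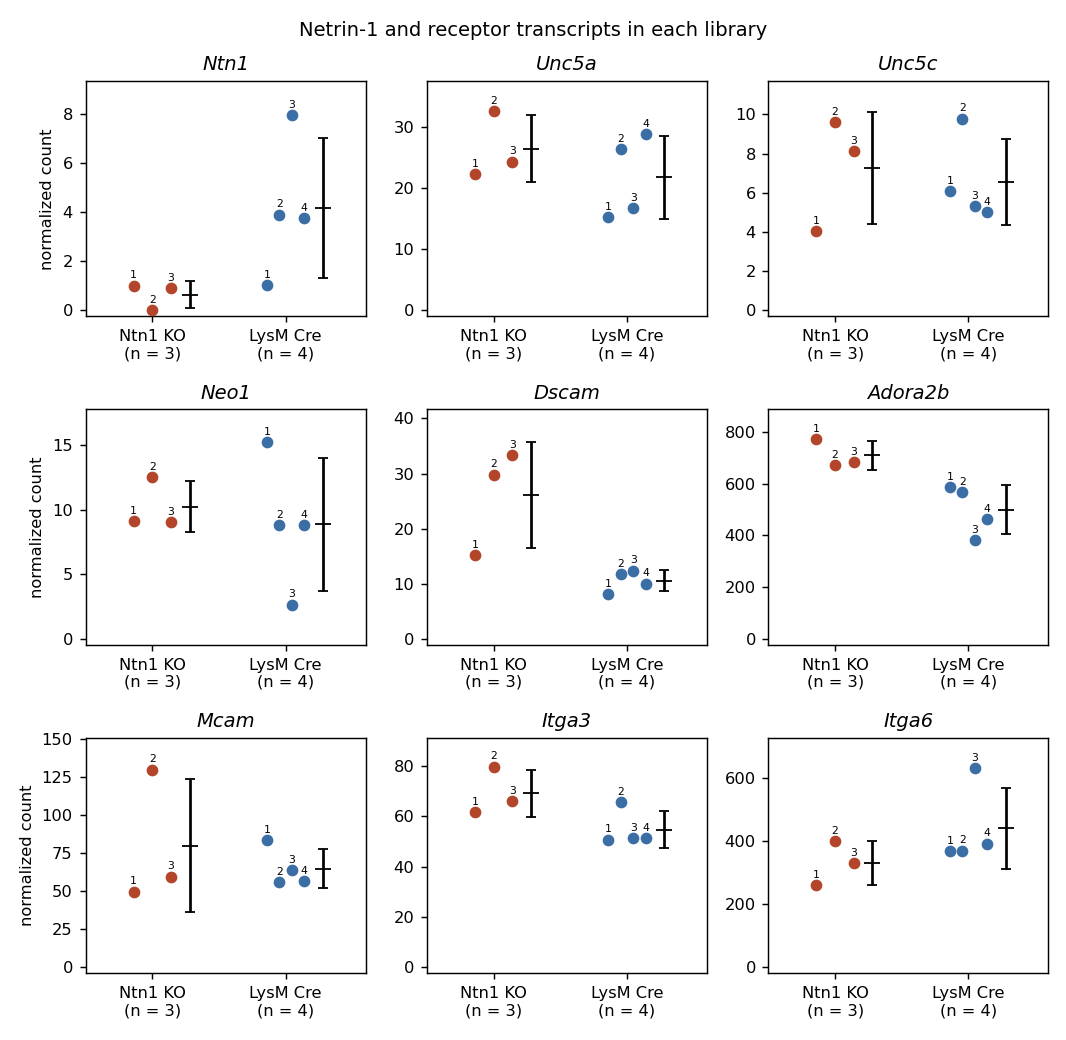
Normalized count of each of the 9 genes in every library (y axis, linear, one panel per gene), with knockout libraries on the left and control libraries on the right of each panel; small numerals are replicate numbers and the bars give mean and SD (n = 3 and 4). Only the Adora2b and Dscam panels show a clear gap with every knockout above every control, and the Ntn1 panel stays under 8 normalized counts.

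The promoters of the genes that rose are shown because they are the regulatory sequence nearest to the measured difference. Sequences are from RefSeq on GRCm38.p6, which held an entry for 7 of the 9 genes, and run from 250 bases before the annotated start to 50 bases after it. The Adora2b promoter lies at chr11:62248734-62249033 on the plus strand and the Dscam promoter at chr16:97170686-97170985 on the minus strand, both written 5′ to 3′ along the gene, and capitals mark the GC box, GGGCGG or its complement CCGCCC.
Adora2b: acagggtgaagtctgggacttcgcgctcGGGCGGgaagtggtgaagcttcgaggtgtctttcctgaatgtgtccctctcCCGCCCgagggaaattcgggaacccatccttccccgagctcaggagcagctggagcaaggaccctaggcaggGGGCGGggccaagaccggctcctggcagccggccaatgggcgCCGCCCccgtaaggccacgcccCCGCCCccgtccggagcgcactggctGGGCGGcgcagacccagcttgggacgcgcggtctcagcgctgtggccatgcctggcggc
Dscam: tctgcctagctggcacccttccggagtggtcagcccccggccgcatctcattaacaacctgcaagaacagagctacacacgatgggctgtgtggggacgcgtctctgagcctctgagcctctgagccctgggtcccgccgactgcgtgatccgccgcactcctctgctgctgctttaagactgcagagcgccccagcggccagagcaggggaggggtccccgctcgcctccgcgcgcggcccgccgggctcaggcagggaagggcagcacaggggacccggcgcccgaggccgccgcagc
The Adora2b sequence held 6 GC boxes and the Dscam sequence 0, in letters present at least once in 35.7% of the 32851 RefSeq promoters of the same length. Neither held the letters ACGTG (either strand, the core of hypoxia response elements, present in 19.6% of promoters) or TGACGTCA (the cyclic AMP response element, in 1.79%). Both were GC-rich, with 70% G and C each and 27 and 26 CpG dinucleotides, against a median of 52.7% and 7 over all promoters. The leading entries of the other 5 genes with a promoter in the table (Neo1, Unc5a, Unc5c, Mcam and Itga3) held 24 to 54 CpG dinucleotides, so CpG-rich starts were common to members that rose and members that did not pass the test. GC boxes numbered 5 in Unc5a, 5 in Mcam, 3 in Itga3, 2 in Neo1 and 0 in Unc5c, so they too were not particular to a member that rose. Mcam also held TGACGTCA.

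The ligand was near the limit of detection. Ntn1 (ENSMUSG00000020902, GRCm38 chromosome 11, 68209364 to 68400823, minus strand) had 1, 0 and 1 reads in knockout replicates 1 to 3 and 1, 4, 9 and 3 reads in control replicates 1 to 4. Knockout replicates 1 and 3 therefore held as many reads as control replicate 1, with 1.01 and 0.903 normalized counts against 1.02. A count of 0 allows up to 3 reads, and 5 of the 7 libraries stood at or under that number. Per kilobase of exon, the mean level of Ntn1 exceeded that of 0.9% of the genes in the table.

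The Ntn1 difference did not pass a test. The mean was 0.639 ± 0.556 normalized counts in knockouts and 4.16 ± 2.86 in controls (SD, n = 3 and 4), which differ by -1.53 on the log2 scale (exact permutation, 2-sided, p = 0.0571 over 35 splits, the smallest possible being 0.0286), and the adjusted p with no minimum of abundance was 0.104 (limma). The summed reads gave a rate in knockouts of 0.148 times that in controls (95% exact interval 0.0166 to 0.622, counting error only). In the authors' deposited table the log2 fold change was -0.31 (SE 0.16, p = 0.0478), with no adjusted p. DESeq2 on recovered reads, with no minimum of abundance, gave -2.72. The size of the deposited value can therefore not be set beside the others. Without control replicate 3, which held 9 of the 17 control reads, the log2 difference was -1.21 (exact permutation p = 0.1, the smallest that 3 against 3 libraries allow). Reads outside the excised exons would still count, so the column cannot show by itself whether recombination took place.

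Among the UNC5 receptors, which can trigger cell death when netrin-1 is absent, neither measured gene passed a test. Unc5a (ENSMUSG00000025876, chromosome 13, 54949411 to 55006018) had 22.3, 32.7 and 24.4 normalized counts in knockout replicates 1 to 3 and 15.2, 26.4, 16.8 and 28.8 in control replicates 1 to 4. The groups overlapped, and control replicates 2 and 4 lay above knockout replicates 1 and 3. The log2 fold change was 0.30 (SE 0.28, 95% interval -0.35 to 0.94, limma adjusted p = 0.483), which leaves room for a change of up to 1.92-fold upward and of 0.786-fold downward. Exons of Unc5a share 34 bases with Hk3, a hexokinase gene on the opposite strand, and with an unknown strand setting reads there cannot be assigned. Hk3 stood at 3588 ± 246 normalized counts in knockouts and 5287 ± 733 in controls (SD, n = 3 and 4) and fell by 0.55 on the log2 scale (SE 0.12, limma adjusted p = 0.0129), the sign opposite to that of the Unc5a value. The profiles nearest to Unc5a, by root mean square difference of centred log2 values over the 7 libraries, were those of Phf11c (0.084), Otub2 (0.103) and Rps15a-ps7 (0.131).

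Unc5c (ENSMUSG00000059921, chromosome 3, 141465216 to 141834924) was below the minimum for the test. It had 4, 10 and 9 reads in knockout replicates 1 to 3 and 6, 10, 6 and 4 reads in control replicates 1 to 4, so the lowest and the highest value were the same in both groups. The normalized count was 7.27 ± 2.88 in knockouts and 6.55 ± 2.20 in controls (SD, n = 3 and 4), with an exact permutation p of 0.743 and a rate ratio of 1.11 (95% exact interval 0.606 to 2.02, counting error only). Exons of Unc5c share 118 bases with Gm15688, an antisense gene. With 19.135 kb of exon, the longest of the set, Unc5c was the lowest member per kilobase in controls and above only Ntn1 in knockouts.

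Neogenin was likewise scarce. Neo1 (ENSMUSG00000032340, chromosome 9, 58874687 to 59036441), whose product binds netrins and repulsive guidance molecules, had 9, 13 and 10 reads in knockout replicates 1 to 3 and 15, 9, 3 and 7 in control replicates 1 to 4. All knockout libraries lay inside the control range. The mean was 10.2 ± 1.98 normalized counts in knockouts and 8.87 ± 5.14 in controls (SD, n = 3 and 4; exact permutation p = 0.657), and the rate ratio was 1.18 (95% exact interval 0.706 to 1.97, counting error only). Its mean over all libraries, 9.45, fell just short of the minimum of 10. The related ligand gene Rgmb stood at 91.3 ± 42 normalized counts in knockouts and 92.3 ± 21.9 in controls (limma adjusted p = 0.861).

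Dscam rose. Dscam (ENSMUSG00000050272, chromosome 16, 96590840 to 97170752, minus strand), which encodes a homophilic adhesion receptor that also binds netrin-1, had 15.2, 29.8 and 33.4 normalized counts in knockout replicates 1 to 3 and 8.13, 11.7, 12.4 and 10 in control replicates 1 to 4, or 15, 31 and 37 reads against 8, 12, 14 and 8. Every knockout library was above every control library, as for 17.4% of all genes tested, and knockout replicate 1 was closest to the controls. The mean was 26.2 ± 9.64 in knockouts and 10.6 ± 1.91 in controls (SD, n = 3 and 4), a log2 fold change of 1.17 (SE 0.32, 95% interval 0.44 to 1.90, limma adjusted p = 0.0326). The exact permutation p was 0.0286, the smallest that 35 splits allow. In the authors' deposited table the log2 fold change was 0.68 (SE 0.23, adjusted p = 0.0221). DESeq2 on recovered reads gave 1.30, so the size of the deposited value cannot be set beside the others.

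The Dscam call rests on few reads and few libraries. It held without knockout replicate 1 (log2 fold change 1.51, adjusted p = 0.0106) and without control replicate 3 (1.25, adjusted p = 0.0476), and missed the threshold in the other 5 such fits. The adjusted p was 0.117 when knockout replicate 2 was left out (log2 fold change 1.04) and 0.106 when knockout replicate 3 was (0.96). It was 0.065 when control replicate 1 was left out (1.06), 0.0618 when control replicate 2 was (1.22) and 0.0716 when control replicate 4 was (1.16). Control replicates 1 and 4 are libraries with far more Lyz2 (76927 and 118781 normalized counts, against 721 to 1052 in the other 5 libraries), and without both of them Dscam had a log2 fold change of 0.98 (limma adjusted p = 0.154). Exons of Dscam share 99 and 174 bases with a pair of genes annotated on the opposite strand, and reads there cannot be assigned without the strand setting. The genes with the most similar profile over the 7 libraries, by root mean square difference of centred log2 values, were Rnf157 (0.164), Klri1 (0.197), a lectin-like receptor of natural killer cells, and Setbp1 (0.198). The 12 natural killer cell markers had a median log2 fold change of 1.83 in the same comparison, and their part in the Dscam difference was not tested.

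Adora2b was the most abundant member and rose by a smaller factor. Adora2b (ENSMUSG00000018500, chromosome 11, 62248984 to 62266453, plus strand) had 772, 670 and 684 normalized counts in knockout replicates 1 to 3 and 586, 568, 381 and 463 in control replicates 1 to 4. The groups did not overlap, which was true of 33.8% of all genes tested, and of 17.4% with the knockouts higher. The mean was 709 ± 55.1 in knockouts and 499 ± 95.6 in controls (SD, n = 3 and 4), a log2 fold change of 0.52 (SE 0.15, 95% interval 0.19 to 0.85, limma adjusted p = 0.0355), or 1.44-fold. The 2-sided exact permutation p was 0.0571. In the authors' deposited table the log2 fold change was 0.45 (SE 0.14, adjusted p = 0.0142). DESeq2 on recovered reads gave 0.50. As for Dscam, the size of the deposited value cannot be set beside the others.

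This call too depended on single libraries. The limma adjusted p was 0.088 when knockout replicate 1 was left out (log2 fold change 0.46), 0.0739 when knockout replicate 2 was (0.56), 0.0684 when knockout replicate 3 was (0.55) and 0.0881 when control replicate 4 was (0.49). The call held when any one of the other 3 controls was left out (adjusted p of 0.0266 to 0.0437). Without both Lyz2-high controls it was 0.60 (adjusted p = 0.0755). Knockout replicate 1, which held the highest Adora2b count, also held the highest sum of neutrophil markers, and the log2 fold change was 0.46 without that library against 0.52 with it. Its erythroid marker sum was also the highest (136707 normalized counts, against 1254 to 26210.5 in the other 6 libraries). The nearest profiles were those of Mrps6 (root mean square difference 0.0837), a mitochondrial ribosomal protein gene, the pseudogene Ldha-ps2 (0.094) and Pdcd5 (0.0994). Adora2b lies 5.94 Mb from Ntn1 on the same chromosome. Within 10 Mb of Ntn1, a window chosen after the data were seen, 30 of 270 tested genes were higher and 32 lower (23.0% called), close to the 22.2% of the whole chromosome.

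**Figure D2:**
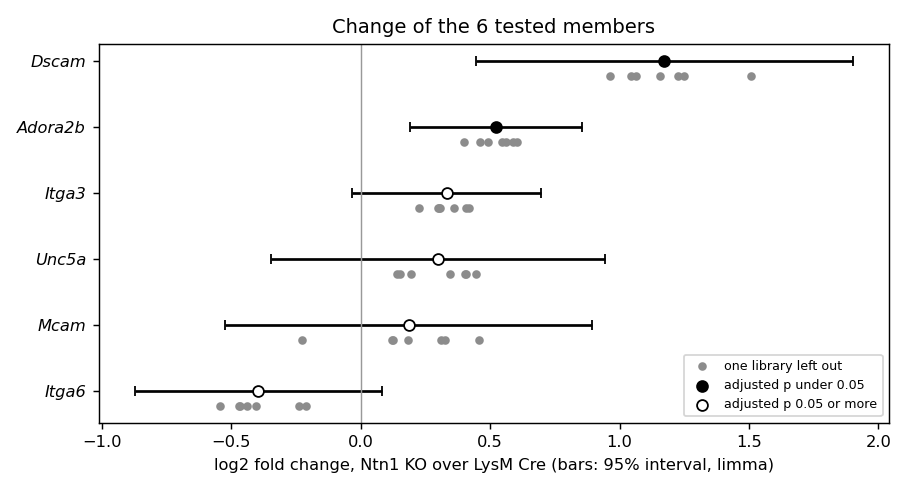
Log2 fold change of the 6 tested genes, knockout over control (x axis; circles with 95% limma intervals, filled where the adjusted p was under 0.05), with grey points for the value when each of the 7 libraries was left out in turn. Grey points run from 0.96 to 1.51 for Dscam and from 0.40 to 0.61 for Adora2b. The groups of these genes did not overlap, so leaving out 1 library could not change their sign. Mcam, whose groups overlapped, lies on both sides of 0.

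Of the adhesion receptors, Mcam, Itga3 and Itga6 did not pass the test. Mcam (ENSMUSG00000032135, chromosome 9, 44134469 to 44142727), a marker of endothelium and of some lymphocytes, had 49.7, 130 and 59.6 normalized counts in knockout replicates 1 to 3 and 83.3, 55.8, 63.7 and 56.4 in control replicates 1 to 4. Knockout replicate 2 stood far above all other libraries and the other 2 knockouts lay at or below the middle of the controls. The log2 fold change was 0.18 (SE 0.31, 95% interval -0.52 to 0.89, limma adjusted p = 0.705), and without knockout replicate 2 it was -0.23 (adjusted p = 0.508). The summed endothelial markers, of which 4 of 8 were in the table, ran from 1619 to 2029 normalized counts in knockouts and from 1189 to 1532 in controls, with 1 rising (Pecam1) and 1 falling (Kdr). The largest term by group mean, Pecam1, stood at 1347 ± 158 in knockouts and 619 ± 105 in controls (SD, n = 3 and 4). Kdr and Vwf had lower means in knockouts (284.2 and 200.5) than in controls (386.2 and 347). Cdh5 had a log2 fold change of 0.84 (limma adjusted p = 0.0638). The higher sum in knockouts therefore rests mainly on Pecam1. Knockout replicate 3 had the highest endothelial sum and knockout replicate 2 the next, the same order as for Pecam1 alone. Exons of Mcam share 17 bases with an antisense gene, Gm10687. Its nearest profiles were those of Pcsk1 (0.142), Cib2 (0.144) and S100a1 (0.171), on the measure used for Dscam.

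Itga3 (ENSMUSG00000001507, chromosome 11, 95044474 to 95076801) had 61.9, 79.8 and 65.9 normalized counts in knockout replicates 1 to 3 and 50.8, 65.6, 51.3 and 51.4 in control replicates 1 to 4. Control replicate 2 was level with knockout replicate 3, and the other 3 controls lay below every knockout. The mean was 69.2 ± 9.41 in knockouts and 54.8 ± 7.20 in controls (SD, n = 3 and 4; log2 fold change 0.33, SE 0.16, 95% interval -0.03 to 0.70, limma adjusted p = 0.17). It was not called in any of the 19 alternative fits. Its nearest profiles were those of Phrf1 (0.0784), Sgcb (0.0793) and Unc45a (0.08).

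Itga6 (ENSMUSG00000027111, chromosome 2, 71745616 to 71858416) was the only tested member with a lower mean in knockouts. It had 261, 398 and 329 normalized counts in knockout replicates 1 to 3 and 367, 369, 629 and 391 in control replicates 1 to 4. Control replicate 3 stood apart from the other 6 libraries, and knockout replicate 2 lay above the other 3 controls. The mean was 329 ± 68.7 in knockouts and 439 ± 127 in controls (SD, n = 3 and 4; log2 fold change -0.40, SE 0.21, 95% interval -0.87 to 0.08, limma adjusted p = 0.206). Without control replicate 3 the log2 fold change was -0.21 (adjusted p = 0.346). The nearest profiles were those of Mfsd4b4 (0.104), Gtf2ird1 (0.144) and Deptor (0.157), which encodes an inhibitor of mTOR. The integrin beta chain Itgb1, with which both alpha chains pair, stood at 10921 ± 725 normalized counts in knockouts and 10707 ± 940 in controls (log2 fold change 0.03, limma adjusted p = 0.841), and Itgb4, the alternative partner of Itga6, had a mean of 4.71 in knockouts and 5.58 in controls, too low for the test.

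Scaled by exon length, the members spanned a wide range of levels in the same order at the top in both groups. In knockouts the normalized count per kilobase was 384 ± 29.9 for Adora2b, 36.5 ± 7.62 for Itga6, 23.79 ± 13.04 for Mcam, 12.1 ± 1.65 for Itga3, 6.35 ± 1.32 for Unc5a and 2.97 ± 1.10 for Dscam (SD, n = 3). In controls it was 271 ± 51.8 for Adora2b, 48.6 ± 14.1 for Itga6, 19.3 ± 3.83 for Mcam, 9.59 ± 1.26 for Itga3, 5.24 ± 1.63 for Unc5a and 1.20 ± 0.217 for Dscam (SD, n = 4). Neighbours in this order did not share any range of libraries, except Itga6 and Mcam in knockouts. Below Dscam, Neo1, Unc5c and Ntn1 followed at 1.17, 0.380 and 0.102 in knockouts, and Neo1, Ntn1 and Unc5c at 1.02, 0.663 and 0.342 in controls, where the ranges of Dscam and Neo1, Neo1 and Ntn1, and Ntn1 and Unc5c overlapped. Adora2b was above 88.5% of the genes in the table by mean level per kilobase, and Itga6 above 51.5%. The other 7 members were above 0.6% to 39.3% of them.

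**Figure D3:**
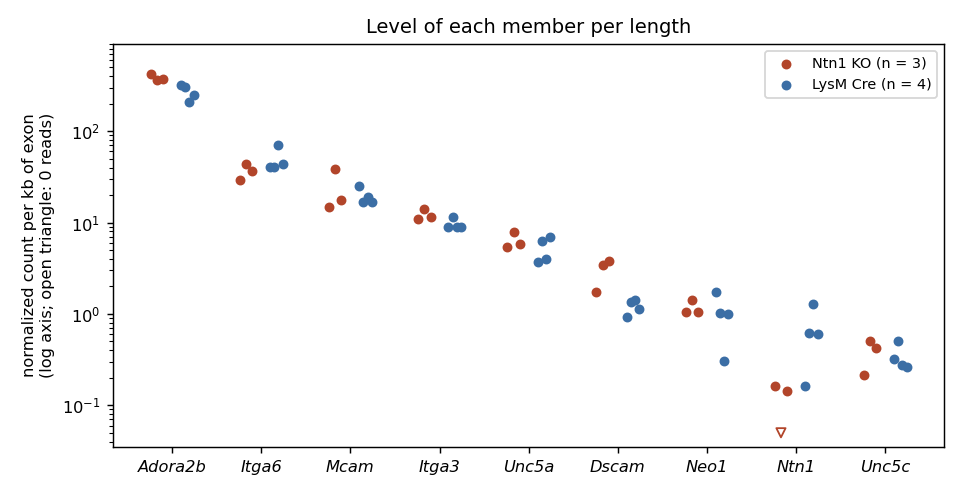
Normalized count per kilobase of annotated exon for each of the 9 genes (log axis), one point per library, knockouts left of controls within each gene; an open triangle marks the knockout library with 0 Ntn1 reads. Every Adora2b point lies above 200 and every Itga6 point below 70, and Neo1, Ntn1 and Unc5c take the lowest places.

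The wider pathway was followed in 6 lists of 83 genes, of which 63 were tested. In knockouts 10 were higher and 9 lower at an adjusted p under 0.05, or 30.2% called, against 21.7% of all genes, and the median log2 fold change was 0.04. Of the other netrins only Ntng2, a membrane-anchored netrin-G, was tested, with 1030 ± 214 normalized counts in knockouts and 834 ± 88.4 in controls (SD, n = 3 and 4; limma adjusted p = 0.166). Of 5 tested ligands and cofactors shared by the receptors 2 fell and 0 rose (limma, edgeR and DESeq2, with 1 higher at an unadjusted p under 0.05). Over all genes tested, limma called 11.3% lower and 10.4% higher. Flrt2, a membrane ligand of UNC5 receptors, had 11.2, 13.5 and 12.7 normalized counts in knockout replicates 1 to 3 and 42.7, 43.1, 36.3 and 102 in control replicates 1 to 4. All knockouts were below all controls, and control replicate 4 was far above the rest (log2 fold change -1.96, SE 0.34, limma adjusted p = 0.00574). Lgals3, the gene for galectin-3, a lectin made by macrophages, fell by 0.93 on the log2 scale (SE 0.11, limma adjusted p = 0.00148).

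Among 8 tested integrin partners and laminins 1 fell and 0 rose (limma, edgeR and DESeq2, and 0 higher at an unadjusted p under 0.05). This is near the shares over all genes tested, 11.3% lower and 10.4% higher in limma. The gene that fell was Lamc1, a laminin gamma chain. It had 527, 636 and 719 normalized counts in knockout replicates 1 to 3 and 929, 1107, 1118 and 1028 in control replicates 1 to 4 (log2 fold change -0.74, SE 0.11, limma adjusted p = 0.0033). Of 25 cytoplasmic effectors of the receptors 4 rose and 3 fell, beside 10.4% higher and 11.3% lower over all genes tested. Fyn, a Src-family kinase recruited by netrin receptors and also used by T and natural killer cells, stood at 2431 ± 78.6 normalized counts in knockouts and 1433 ± 135 in controls (SD, n = 3 and 4; log2 fold change 0.77, SE 0.08, limma adjusted p = 0.000987), and Src itself at 158 ± 40.3 in knockouts and 348 ± 106 in controls (-1.12, SE 0.25, adjusted p = 0.0147). Ablim1, an actin-binding LIM protein gene, rose by 0.40, Was and Vasp, regulators of actin assembly, by 0.34 and 0.49, while Dock1, an activator of Rac, and Wasl changed by -0.71 and -0.33. Rac1, Cdc42 and Rhoa, the small GTPases at the end of this route, had log2 fold changes of 0.04, 0.07 and -0.08 and were not called.

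Among death effectors linked to UNC5 receptors and neogenin, Casp8, an initiator caspase, stood at 2063 ± 103 normalized counts in knockouts and 1754 ± 75.2 in controls (SD, n = 3 and 4) and rose by 0.23 on the log2 scale (SE 0.07, limma adjusted p = 0.0355). Dapk1, a kinase bound by UNC5 receptors, stood at 630 ± 159 in knockouts and 931 ± 125 in controls (log2 fold change -0.59, SE 0.17, limma adjusted p = 0.0413). In adenosine A2B signalling 4 of 15 rose and 2 fell, beside 10.4% higher and 11.3% lower over all genes tested. Adora2a, the high-affinity Gs-coupled adenosine receptor, had 1399, 1143 and 1270 normalized counts in knockout replicates 1 to 3 and 747.5, 840, 687 and 737 in control replicates 1 to 4, all knockouts lying above all controls (log2 fold change 0.75, SE 0.09, limma adjusted p = 0.0015). Crem, a transcription factor of the cyclic AMP response, stood at 1252 ± 268 in knockouts and 531 ± 92.5 in controls (log2 fold change 1.23, SE 0.17, adjusted p = 0.00239). The phosphodiesterase genes Pde4d and Pde4a, whose products break down cyclic AMP, rose by 0.47 and 0.53. Adcy9, an adenylate cyclase, had 27.4, 27.9 and 28.9 normalized counts in knockout replicates 1 to 3 and 55.9, 52.8, 62 and 52.7 in control replicates 1 to 4, with no overlap (log2 fold change -0.97, SE 0.15, adjusted p = 0.00367), and Gnaq, a G protein alpha subunit, changed by -0.52. Adora3 was not called (adjusted p = 0.386).

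With any one library left out, 11 of these 19 pathway genes stayed past the threshold, among them Lgals3, Flrt2, Lamc1, Fyn, Src, Adora2a, Crem, Pde4d, Adcy9 and Gnaq. Ablim1 was lost without knockout replicate 2, Pde4a without knockout replicate 2 or 3, and Was without any one of the controls. Vasp, Dock1, Wasl, Casp8 and Dapk1 each kept the call in 2 of 7 such fits. Under all 19 alternatives 7 of the 19 stayed called, and these were Lgals3, Flrt2, Lamc1, Fyn, Adora2a, Crem and Adcy9. Without both Lyz2-high controls 9 of the 19 were called. Src then had a log2 fold change of -0.81 (limma adjusted p = 0.0751) and Gnaq of -0.42 (adjusted p = 0.0734). Ablim1, Was, Vasp, Dock1, Wasl, Casp8, Dapk1 and Pde4a also missed the threshold in that fit. Natural killer and monocyte markers, and 3 of 12 T cell and 3 of 8 dendritic cell markers, moved in the same comparison as Fyn and Lgals3. The part of these markers in the differences was not tested.

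**Figure D4:**
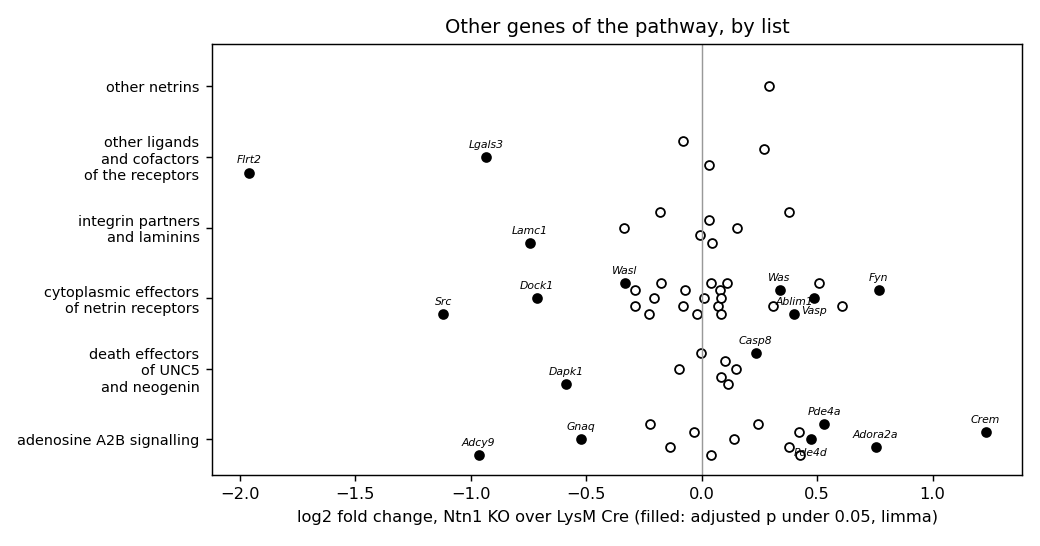
Log2 fold change of the tested pathway genes, knockout over control (x axis), by list (rows), without 1 gene that is not reported here; filled points had an adjusted p under 0.05 in limma and are named, and vertical scatter within a row carries no value. Filled points lie on both sides of 0 in the 3 lowest rows, and Flrt2 at -1.96 is the farthest from 0.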

How the data were processed

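The authors deposited 1 table whose library columns are a signal, namely reads per gene scaled by one factor per library. The submitters' processing notes name GRCm38 (mm10), DESeq2, HTSeq, STAR 2.5.3a and cutadapt 1.15; strand setting and annotation were not given in the sources used here. Per the file headers, the authors' mean, log2 fold change with its standard error, test statistic (score), p-value and adjusted value follow. Every value was a whole multiple of its library's step within 0.01 (100% of values), so whole reads were recovered as counts; their totals set the counting precision.

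Groups came from the sample titles. limma 3.58.1 in R 4.3.3 (eBayes with trend) was fitted on log2(normalized count + 1), which understates changes of low genes, for the 12963 genes with a mean of at least 10; Benjamini-Hochberg adjusted p-values under 0.05 were called. Members below that minimum were compared by 2-sided exact permutation over 35 splits. The design had named edgeR for raw counts and limma for normalized values; the table held the second. edgeR 4.0.16 and DESeq2 1.42.0 were run on recovered reads as alternatives, beside other scalings, filters, pseudocounts, blocks and left-out libraries. Libraries of a group differed by a chi-square per gene of 8.51 to 35.5, so none were duplicates. GENCODE M21 (GRCm38) supplied exon lengths, positions and overlaps and held 99.81% of the identifiers. Intervals on reads cover counting error only, as reads without molecular identifiers are not independent molecules.

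Members and lists were chosen with earlier results of these data known. Named are all members, up to 4 genes per direction of each pathway list among those called, by smallest p, except 1 gene that is not reported here, and the 3 genes nearest in profile to each tested member. Hk3, Lyz2, the marker genes Pecam1, Kdr, Sftpc, Sftpb, Trbc1, Lck, Thy1, Ccr7, Ccl17 and Ccl22, and the list genes Rgmb, Ntng2, Itgb1, Itgb4, Rac1, Cdc42, Rhoa and Adora3, named although they were not called or outside this rule, were chosen after their values were seen. The same holds for the marker genes Cd3d, Cd3e, Cd3g, Trac, Cdh5, Vwf, Scgb1a1 and Foxj1.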

Additional observations from a re-analysis of the deposited data

Results flagged for a closer look

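Among the 28 genes named as members or pathway genes, the 4 controls were searched for a library apart from the rest, a search in which chance alone marks about 1 group in 20. Itga3 in control replicate 2 (65.6 normalized counts) lay apart from the other 3 controls, its gap to the next being 0.957 of the control range. Itga6 in control replicate 3 (629 normalized counts) lay apart by 0.906 of the range. Flrt2 in control replicate 4 (102 normalized counts) lay apart by 0.896 of the range, and all 4 controls still exceeded the 3 knockouts.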

How the results depend on the processing

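The 2 member calls held under the other scalings, filters, pseudocounts, edgeR and DESeq2, and numbered 0 to 2 with one library left out. They numbered 0 with the title number as a replicate block and 1 with the library name number as a block (in limma; 2 higher at an unadjusted p under 0.05 in each), and 0 without control replicates 1 and 4 together or without 2 and 3 together. All genes called numbered 806 and 1196 under these blocks, 1199 and 1233 without those control pairs, and 1504 to 2414 with one library left out, against 2813. Pathway genes called numbered 8 and 8, 9 and 11, and 14 to 17, against 19. Src, Gnaq, Pde4d, Ablim1, Was, Dock1, Wasl, Casp8, Dapk1 and Pde4a lost the call under both blocks. Vasp lost it under the library name number only. Pde4d also lost the call without controls 2 and 3 (limma adjusted p = 0.05001). The cause was not tested; fewer libraries and fewer residual degrees of freedom enter these fits. Same-numbered libraries deviated from their group means with correlations of -0.229 to -0.0253 (title numbers) and -0.285 to 0.0762 (library name numbers). These values showed no sign of a pairing by either number, and they cannot exclude one. Ntn1 kept its direction in all 19 alternatives (-2.72 to -0.65). Its highest knockout value (1.014 normalized counts) lay just below its lowest control value (1.016). Leaving out libraries could therefore not change the sign. With libraries left out, the exact permutation p could not go below 0.0667 or 0.1, so those fits could not pass 0.05 and say nothing of stability; none of the others did (DESeq2 gave no adjusted p); in its replicate block fits the log2 difference was -1.51 (adjusted p = 0.229) and -1.93 (adjusted p = 0.115), with no filter. Values not called changed sign for Neo1 (-0.061 to 0.66 with one library left out, -0.18 without controls 2 and 3), Unc5c (-0.11 to 0.42, the negative ones including -0.0030, and -0.065 without controls 1 and 4) and Mcam (-0.23 to 0.46). Of 513 single-gene values, those of Ntn1 not among them, 417 kept direction and side of the threshold, 90 lost a call and 6 changed sign. The 417 include values of members not called in the main fit, which had no call to lose. For Neo1 and Unc5c the fits with libraries left out used the same exact permutation test as Ntn1. Those could not pass 0.05 either, so their side of the threshold was fixed. Depth limits Ntn1, Neo1 and Unc5c, which held 0 to 15 reads per library. Fits of these 3 genes with edgeR, DESeq2 or a block used no filter, a choice made after the data were seen.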
